A study of Ovis aries with 16 samples.

Results

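Immediate early transcription factors are the first genes a cell switches on after a stimulus, and 10 of them were followed here across 16 RNA-seq libraries of sheep fat. They were chosen by gene name, as FOS, FOSB, JUN, JUNB, EGR1, EGR2, NR4A1, NR4A2, ATF3 and IER2, and all 10 were found among the 28524 genes of the deposited table. The libraries came from female offspring at an age of 21 months, in 4 groups of 4 libraries. Visceral fat (mesenteric, beside the rumen) and subcutaneous fat (sternal) were each taken from offspring of mothers injected with bisphenol A (BPA) and from offspring of control mothers. BPA is a compound of plastics that can bind oestrogen receptors. The BPA mothers were given 0.5 mg/kg/day in corn oil under the skin between gestation days 30 and 90, of a term of 147 days, and the control mothers were given corn oil alone over the same days. All 4 groups shared the diet of the offspring, a pair of prostaglandin F2α injections of 10 mg set 11 days apart to synchronize oestrus, death by barbiturate overdose, and collection of the fat 24 hours after the last injection. The time between death and freezing is not given in the sources used here.

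These genes need no new protein to be transcribed: kinases such as ERK and p38 act on factors that already sit at their promoters, SRF with its ELK partners and CREB among them, and transcription starts within minutes. The mRNAs and proteins are short-lived, so a level reflects recent signals, and handling of a tissue can be among those signals. FOS and JUN proteins pair to form AP-1, EGR proteins bind DNA through zinc fingers, NR4A proteins are orphan nuclear receptors, ATF3 is a stress-induced relative of AP-1, and IER2 is a small nuclear protein. In mouse preadipocyte cultures, EGR2 is among the first factors made as fat cells form. The roles given here are known mainly from human and mouse cells.

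The genes were compact. JUN and JUNB had 1 exon block in the deposited table, EGR1, EGR2 and IER2 had 2, FOS, FOSB and ATF3 had 4, NR4A2 had 8 and NR4A1 had 9. Their median span from first to last exon base was 4.36 kb, against a median of 17.4 kb over 18815 protein-coding genes, and the widest, NR4A1 with 16.7 kb, was still below that median. JUNB and IER2 lay 295.7 kb apart on the same sequence, and the 10 genes lay on 8 sequences. FOSB overlapped an opposite-strand gene, LOC105616901, in 14 exon bases. The strand setting of the counts is not given, so reads from these bases cannot be assigned to one gene, but LOC105616901 had only 2 to 35 counts per library.

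Library totals, in mega-counts (M), ranged over 6.77–14.3 M in visceral BPA libraries, 11.0–13.1 M in visceral controls, 3.05–4.83 M in subcutaneous BPA libraries and 4.74–6.22 M in subcutaneous controls. All 16 adipocyte markers were detected in every group, with a summed level of 14270 to 36740 CPM, the unit used throughout, in which counts are scaled to a common library total. Mesothelial markers, from the lining of the abdominal cavity, summed to 29.9–283 CPM in visceral libraries and to 1.85–9.34 CPM in subcutaneous libraries. In bulk tissue, fewer cells of a type and less RNA per cell cannot be told apart. Each library is called by the number in its title, and 902, 918, 924, 928 and 977 occur in both depots. Nothing in the labels says that libraries of 1 group came from separate animals, so p-values measure the spread between these libraries.

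Per kilobase of exon, JUN was the most abundant of the 10 in every group, at 132 ± 42.7 CPM per kb in visceral BPA libraries, 132 ± 20.3 in visceral controls, 87.9 ± 32.8 in subcutaneous BPA libraries and 101 ± 21.4 in subcutaneous controls (SD, n = 4 each). Its range stood apart from that of the next gene in 3 groups and overlapped with EGR1 in visceral BPA libraries. EGR1 had the next mean in visceral fat, at 75.8 ± 60 CPM per kb in BPA libraries and 44.7 ± 24.8 in controls, but its range overlapped with that of IER2 in both groups. In subcutaneous fat the places after JUN were held by IER2 and JUNB, at 18 ± 9.79 and 16.9 ± 10.6 CPM per kb in BPA libraries and 24 ± 4.36 and 25.3 ± 5.12 in controls, and these neighbours overlapped in both groups. In visceral controls IER2 (33.5 ± 2 CPM per kb), JUNB (27.7 ± 1.5) and the pair of FOS (11.8 ± 2.41) and NR4A1 (11.4 ± 1.27) had ranges that did not overlap from step to step. ATF3, NR4A2, FOSB and EGR2 were the 4 least abundant in both control groups, at 3.3 CPM per kb or less on average, with overlapping neighbours. FOSB moved up to 9.56 ± 12.6 CPM per kb in visceral BPA libraries, a mean carried by 1 library described below.

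**Figure D1:**
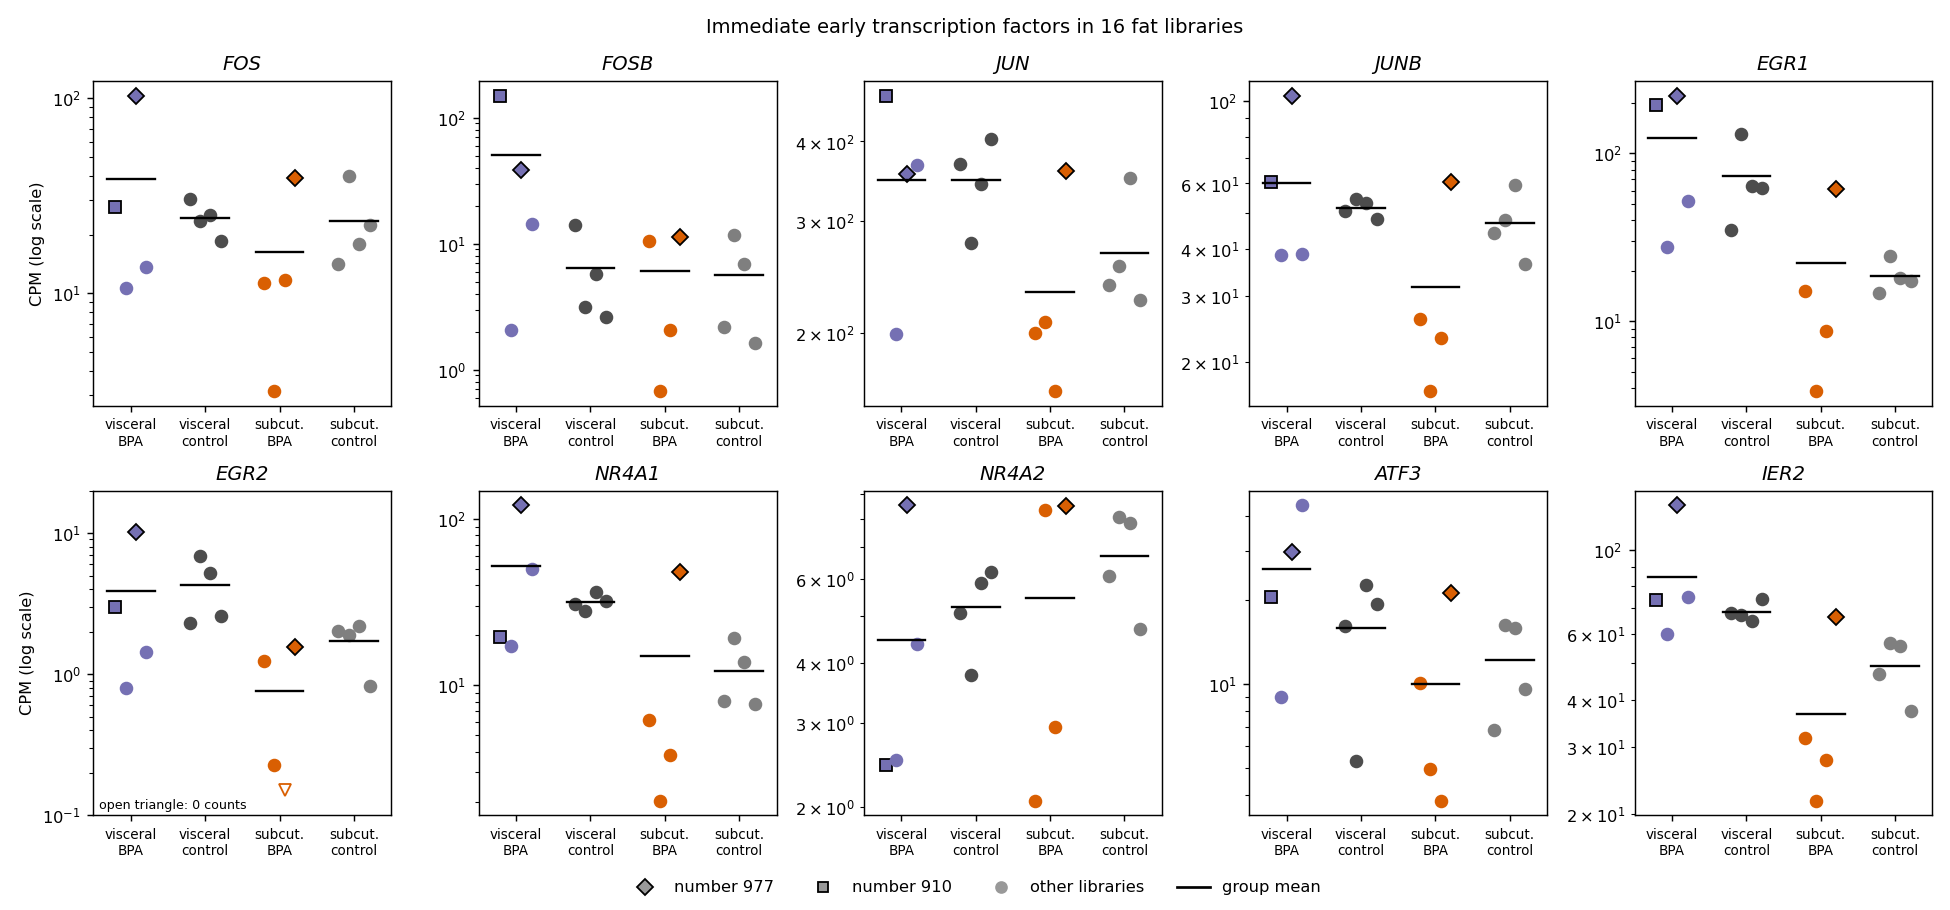
Level of each of the 10 genes in every library (CPM, log axis), with visceral BPA, visceral control, subcutaneous BPA and subcutaneous control libraries side by side; points are single libraries and the short lines are group means. JUN lies highest throughout, BPA points are mostly spread more widely than control points, and EGR1 and NR4A1 lie higher in visceral than in subcutaneous controls.

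The effect of prenatal BPA was examined first within each depot, by the quasi-likelihood test of edgeR with Benjamini-Hochberg adjustment over all genes tested. No member was called in either depot. In subcutaneous fat, 9 of the 10 members had enough counts to be tested (EGR2 did not) and 0 were called at an adjusted p under 0.05, against 0.709% of the 13535 genes tested. At the same time, 0 of the 9 reached an unadjusted p under 0.05 (14.2% of all genes) and 0 separated the groups without overlap (7.45% of all genes). In visceral fat, 0 of 10 members were called, against 0% of 14774 genes. FOSB alone had an unadjusted p under 0.05 (7.47% of all genes), and 0 members separated the groups (4.03%). DESeq2, as another test, also called 0 members in either depot.

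The FOS genes supply 1 partner of AP-1, and FOS was detected in all 16 libraries. In subcutaneous fat, FOS was measured at 11.3, 3.16, 11.7 and 39 CPM in BPA libraries 918, 922, 941 and 977, against 14.2, 39.8, 17.9 and 22.5 CPM in controls 902, 924, 928 and 931. In visceral fat, FOS was at 27.6, 10.7, 103 and 13.6 CPM in BPA libraries 910, 918, 977 and 984, against 30.5, 23.4, 25.3 and 18.5 CPM in controls 902, 908, 924 and 928. The highest value of each BPA group was that of 977, and the groups overlapped in both depots. The log2 fold change of BPA over control was -0.53 ± 0.57 (SE; adjusted p = 0.729) in subcutaneous fat and 0.66 ± 0.60 (adjusted p = 0.757) in visceral fat. Without 977 the visceral estimate turned to -0.50.

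FOSB, which makes a protein close to FOS, had the largest visceral estimate of the 10, and its size depended strongly on a single library. In visceral fat, FOSB was at 149, 2.05, 38.2 and 14.3 CPM in BPA libraries 910, 918, 977 and 984, against 14, 3.12, 5.78 and 2.6 CPM in controls 902, 908, 924 and 928. Libraries 910, 977 and 984 lay above every control, 984 only narrowly, and 918 lay below every control. Library 910 alone held 1334 FOSB counts, and its ratio of FOSB to FOS counts was 5.38, against 0.0727 to 1.05 in the other 15 libraries. The opposite-strand gene LOC105616901 had 9 counts in that library. The log2 fold change was 3.0 ± 1.01 (95% interval 0.78 to 5.23, unadjusted p = 0.0129, adjusted p = 0.658). It was 1.51 without 910, the lowest of 1.51 to 3.73 over single omissions. In subcutaneous fat, FOSB was at 10.5, 0.677, 2.05 and 11.2 CPM in BPA libraries 918, 922, 941 and 977, against 2.18, 11.7, 6.89 and 1.64 CPM in controls 902, 924, 928 and 931. Both groups there held high and low libraries, and the log2 fold change was 0.13 ± 0.77 (adjusted p = 0.958), or -0.31 without 977.

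The JUN genes supply the other partner of AP-1, and JUN can also pair with itself. In subcutaneous fat, JUN was at 200, 208, 162 and 359 CPM in BPA libraries 918, 922, 941 and 977, against 238, 255, 350 and 225 CPM in controls 902, 924, 928 and 931. In visceral fat, JUN was at 472, 199, 356 and 367 CPM in BPA libraries 910, 918, 977 and 984, against 369, 277, 343 and 404 CPM in controls 902, 908, 924 and 928. The groups overlapped in both depots, and the log2 fold changes were -0.20 ± 0.24 (adjusted p = 0.761) in subcutaneous fat and 0.01 ± 0.24 (adjusted p = 0.995) in visceral fat. The 95% interval of the visceral value ran over -0.53 to 0.54.

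JUNB pairs with FOS proteins and often restrains genes that JUN drives. In subcutaneous fat, JUNB was at 26, 16.7, 23.2 and 60.6 CPM in BPA libraries 918, 922, 941 and 977, against 44.2, 48, 59.5 and 36.6 CPM in controls 902, 924, 928 and 931. BPA library 977 lay above every control and the other 3 below every control. The log2 fold change was -0.57 ± 0.34 (adjusted p = 0.482), and without 977 it was -1.09 with an adjusted p of 0.0688, the lowest that any member reached in any fit of BPA against control. In visceral fat, JUNB was at 60.4, 38.6, 103 and 38.9 CPM in BPA libraries 910, 918, 977 and 984, against 50.5, 54.5, 53.2 and 48.2 CPM in controls 902, 908, 924 and 928. All 4 controls lay between the high pair and the low pair of BPA libraries, with a log2 fold change of 0.22 ± 0.29 (adjusted p = 0.819), or -0.18 without 977.

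EGR1 binds GC-rich promoters and is one of the fastest genes to answer growth factors and serum. In subcutaneous fat, EGR1 was at 15.2, 3.83, 8.79 and 61.2 CPM in BPA libraries 918, 922, 941 and 977, against 14.8, 24.4, 18 and 17.4 CPM in controls 902, 924, 928 and 931. In visceral fat, EGR1 was at 195, 27.7, 220 and 51.9 CPM in BPA libraries 910, 918, 977 and 984, against 34.9, 130, 64 and 62.5 CPM in controls 902, 908, 924 and 928. Libraries 910 and 977 lay above all visceral controls, and 918 lay below them. The log2 fold change was 0.26 ± 0.63 (adjusted p = 0.888) in subcutaneous fat, where it turned to -0.99 without 977, and 0.77 ± 0.60 (adjusted p = 0.731) in visceral fat.

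EGR2 was sparse. In subcutaneous fat, EGR2 was at 1.24, 0.226, 0 and 1.57 CPM in BPA libraries 918, 922, 941 and 977, against 2.02, 1.89, 2.19 and 0.818 CPM in controls 902, 924, 928 and 931, and it was too low to test there. The 0 counts in 941 allow a level of up to 0.879 CPM, taking 3 counts as the limit and counting error only. In visceral fat, EGR2 was at 3.01, 0.797, 10.2 and 1.43 CPM in BPA libraries 910, 918, 977 and 984, against 2.32, 6.91, 5.17 and 2.6 CPM in controls 902, 908, 924 and 928. The highest and the lowest visceral library were both BPA libraries, and the log2 fold change was -0.16 ± 0.71 (adjusted p = 0.948), or 0.18 without 918, 0.12 without 984 and 0.17 without control 908.

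NR4A1 (Nur77) acts without a known hormone and, in rodents, is induced in fat by cold and adrenergic signals. In subcutaneous fat, NR4A1 was at 6.18, 2.03, 3.81 and 48.2 CPM in BPA libraries 918, 922, 941 and 977, against 8.1, 19.3, 13.9 and 7.77 CPM in controls 902, 924, 928 and 931. Again 3 BPA libraries lay below every control and 977 above. The log2 fold change was 0.30 ± 0.78 (adjusted p = 0.899), or -1.59 without 977. In visceral fat, NR4A1 was at 19.6, 17.3, 121 and 50.4 CPM in BPA libraries 910, 918, 977 and 984, against 30.9, 27.9, 36.5 and 32.3 CPM in controls 902, 908, 924 and 928. The controls differed little among themselves and sat inside the BPA range, with a log2 fold change of 0.71 ± 0.52 (adjusted p = 0.715), or -0.13 without 977.

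NR4A2 (Nurr1) followed the other members least. In subcutaneous fat, NR4A2 was at 2.06, 8.35, 2.93 and 8.52 CPM in BPA libraries 918, 922, 941 and 977, against 6.07, 8.09, 7.83 and 4.71 CPM in controls 902, 924, 928 and 931. In visceral fat, NR4A2 was at 2.45, 2.51, 8.54 and 4.37 CPM in BPA libraries 910, 918, 977 and 984, against 5.08, 3.78, 5.86 and 6.18 CPM in controls 902, 908, 924 and 928. Library 922, the lowest of the subcutaneous BPA group for 6 members, was among its high libraries for NR4A2. The log2 fold changes were -0.28 ± 0.44 (adjusted p = 0.819) in subcutaneous fat, or 0.00 without 918 (0.002 unrounded), and -0.23 ± 0.43 (adjusted p = 0.872) in visceral fat.

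ATF3 is induced by many stresses and can hold down the genes of other early factors. In subcutaneous fat, ATF3 was at 10.1, 4.96, 3.81 and 21.1 CPM in BPA libraries 918, 922, 941 and 977, against 6.85, 16.3, 15.8 and 9.61 CPM in controls 902, 924, 928 and 931. In visceral fat, ATF3 was at 20.5, 9, 29.8 and 43.7 CPM in BPA libraries 910, 918, 977 and 984, against 16.1, 5.3, 22.6 and 19.4 CPM in controls 902, 908, 924 and 928. Here 984, and not 977, was the highest visceral library, and control 908 was the lowest. The log2 fold changes were -0.27 ± 0.48 (adjusted p = 0.842) in subcutaneous fat and 0.71 ± 0.49 (adjusted p = 0.699) in visceral fat.

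IER2 and JUNB were the most even of the members across visceral controls, each with an SD of log2 CPM of 0.08. In subcutaneous fat, IER2 was at 31.7, 21.7, 27.8 and 66.2 CPM in BPA libraries 918, 922, 941 and 977, against 46.9, 56.6, 55.5 and 37.4 CPM in controls 902, 924, 928 and 931. In visceral fat, IER2 was at 73.5, 59.8, 131 and 75.1 CPM in BPA libraries 910, 918, 977 and 984, against 67.9, 67.2, 64.7 and 74.2 CPM in controls 902, 908, 924 and 928. As for JUNB and NR4A1, 3 subcutaneous BPA libraries lay below every control and 977 lay above. The log2 fold changes were -0.41 ± 0.30 (adjusted p = 0.582) in subcutaneous fat and 0.31 ± 0.23 (adjusted p = 0.716) in visceral fat.

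Over the members tested, the median log2 fold change of BPA over control was -0.27 in subcutaneous fat, against -0.01 over all genes, and 3 of 9 were positive (49.2% of all genes). In visceral fat it was 0.49, against 0.002 over all genes, and 8 of 10 were positive (50.3% of all genes). Without library 977 the median was -0.95 in subcutaneous fat and -0.07 in visceral fat. With the library total as a covariate it was 0.20 in subcutaneous fat and 0.07 in visceral fat. Of the relatives in the same families, 0 of 4 tested in subcutaneous fat were called: FOSL2 had -0.17 ± 0.26, JUND -0.07 ± 0.21, EGR3 -0.27 ± 0.98 and NR4A3 0.40 ± 0.63 (adjusted p 0.816 to 0.929). In visceral fat 0 of 5 were called, with FOSL1 at 2.36 ± 1.0, JUND at 0.46 ± 0.24, FOSL2 at 0.40 ± 0.24, NR4A3 at 1.12 ± 0.82 and EGR3 at 0.09 ± 0.64 (adjusted p 0.658 to 0.971). FOSL1 was sparse, at 4.91 CPM or less in every library, and EGR4 had 0 counts in all 16.

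Estimates within several marker lists of cell types also lay mostly in 1 direction between BPA and control libraries, with few markers called. Of all genes, 0.709% were called in subcutaneous fat and 0% in visceral fat. In subcutaneous fat, 9 of 9 tested macrophage markers had negative estimates (1 called), with a summed level of 329–527 CPM in BPA libraries and 612–856 CPM in controls. Negative estimates were also found for 5 of 5 lymphocyte markers (0 called; 44.4–105 CPM in BPA libraries and 84.8–241 CPM in controls) and for 9 of 10 progenitor and stromal markers (1 called; 3158–5514 CPM in BPA libraries and 5477–7877 CPM in controls). Smooth muscle markers were positive for 7 of 8 in subcutaneous fat (1 called; 940.4–1397 CPM in BPA libraries and 783–1110 CPM in controls) and for 8 of 8 in visceral fat (0 called; 1503–4797 CPM in BPA libraries and 1268–2079 CPM in controls). Adipocyte markers were positive for 15 of 16 in subcutaneous fat and for 7 of 16 in visceral fat (0 called in either). Endothelial markers were negative for 8 of 10 in each depot (0 called). In visceral fat, 3 of 9 macrophage, 5 of 7 lymphocyte and 3 of 10 progenitor and stromal markers were positive (0 called). Heat shock genes were positive for 8 of 9 in visceral fat (median 0.35 lies below as a mean, median 0.23) and for 4 of 9 in subcutaneous fat (median -0.08), with 0 called in either. No marker of these lists was at 0 throughout a group. Their part in the member estimates was not tested.

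**Figure D2:**
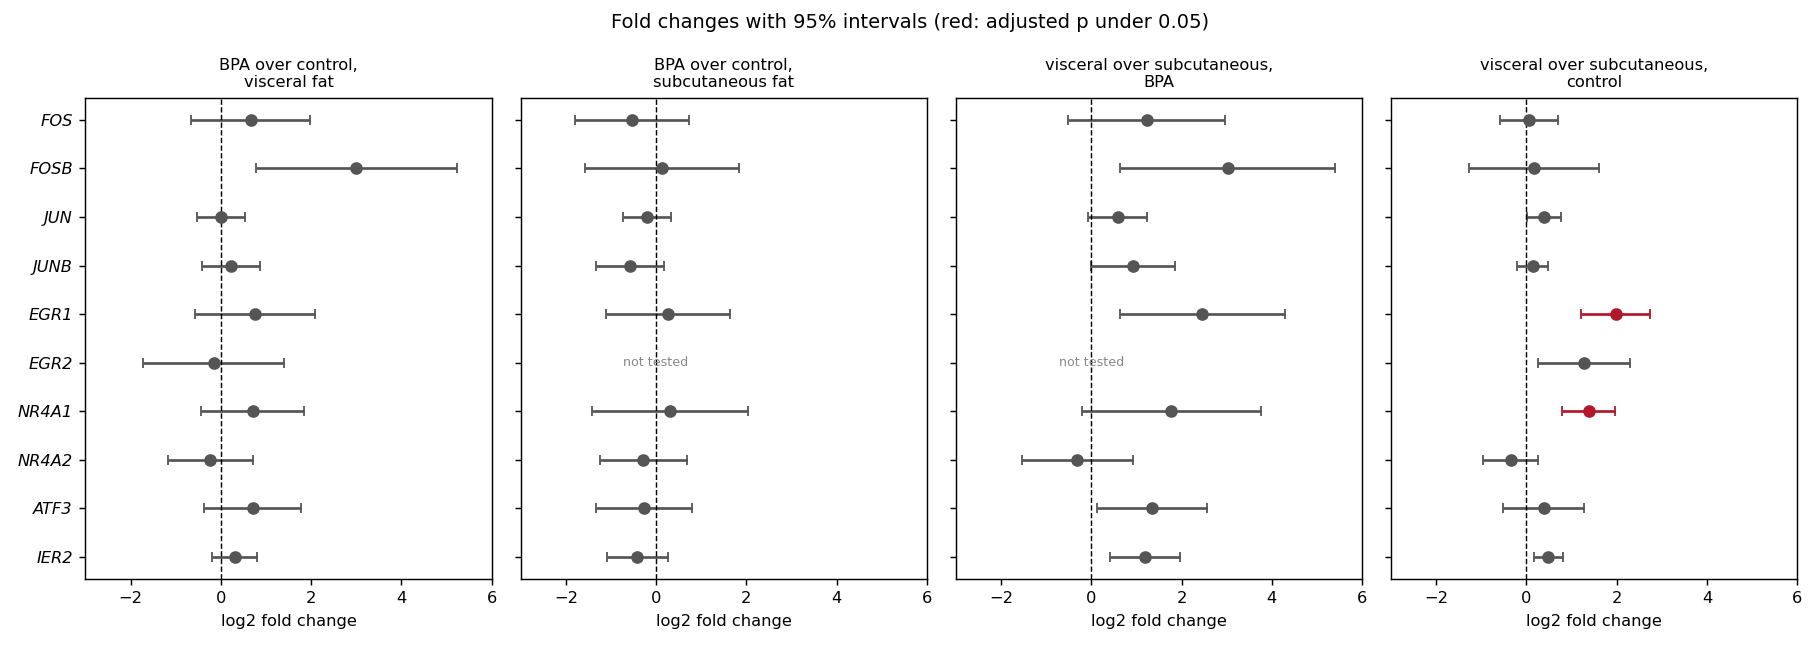
Log2 fold change of each of the 10 genes in the 4 comparisons (BPA over control in visceral and in subcutaneous fat, and visceral over subcutaneous fat in BPA and in control libraries), with 95% intervals from edgeR; red marks an adjusted p under 0.05. EGR1 (1.97) and NR4A1 (1.38) are the red points, both for visceral over subcutaneous fat in controls, and EGR2 was not tested in the comparisons that use subcutaneous BPA libraries.

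The difference between both BPA effects, visceral minus subcutaneous, was tested on all 16 libraries. It was positive for all 10 members (51.9% of all genes), with a median of 0.76 on the log2 scale against 0.02 over all genes, but 0 of 10 were called (0% of 14793 genes), 0 had an unadjusted p under 0.05 (6.2% of all genes), and DESeq2 called 0 members. The 10 include EGR2 (0.96), which was too low to test in the subcutaneous libraries alone. It had 6, 1, 0 and 7 counts in subcutaneous BPA libraries 918, 922, 941 and 977, against 26 to 73 counts in visceral controls. Its value here therefore rests on few subcutaneous counts. The estimates ran from 0.04 for NR4A2 to 2.85 ± 1.40 for FOSB (adjusted p = 0.835). JUNB had 0.79 (adjusted p = 0.898, 95% interval -0.23 to 1.81) and IER2 had 0.72 (adjusted p = 0.875, 95% interval -0.14 to 1.57). In this contrast 9 of 9 macrophage markers (median 0.85; 6 with an unadjusted p under 0.05) and 7 of 7 lymphocyte markers (median 1.41; 1 with an unadjusted p under 0.05) were positive as well. So were 34 of 42 other immediate early genes (median 0.42), 8 of 9 heat shock genes (0.45), 7 of 10 progenitor and stromal markers (0.47) and 6 of 8 smooth muscle markers (0.37). Positive estimates were fewer for endothelial (4 of 10, median -0.07) and adipocyte markers (1 of 16, median -0.33). In all these lists 0 were called, and their part in the member values was not tested. The median of the members was 0.13 without visceral BPA library 977 and 1.58 without subcutaneous BPA library 977.

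Members were more widely spread between BPA libraries than between controls. The SD of log2 CPM over 4 libraries was larger in BPA than in control libraries for 10 of 10 members in both depots, where 46.4% of 14793 genes in subcutaneous fat and 74.7% in visceral fat had a larger SD in BPA libraries. In subcutaneous fat the median SD of the members was 1.21 in BPA libraries and 0.45 in controls, while over all genes it was 0.29 and 0.31. In visceral fat it was 1.13 in BPA libraries and 0.30 in controls, and over all genes 0.40 and 0.26. The SD was at least 2 times that of the controls for 7 of 10 members in subcutaneous fat (12.8% of all genes) and for 8 of 10 in visceral fat (31.8%). The subcutaneous counts include EGR2 (SD ratio 2.44), which had only 6, 1, 0 and 7 counts in BPA libraries 918, 922, 941 and 977. Its SD there rests on few counts, in libraries of low depth (3.05–4.83 M). These shares are descriptions, since the members vary together and 4 libraries give an imprecise SD, and the difference in spread was not tested.

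Single genes ranged widely in this measure. EGR1 in subcutaneous fat had an SD of 1.65 in BPA libraries and 0.30 in controls. NR4A1 in visceral fat had 1.3 in BPA libraries and 0.16 in controls, and JUNB there had 0.67 in BPA libraries and 0.08 in controls. ATF3 in visceral fat had nearly the same SD in both groups, 0.96 in BPA libraries and 0.93 in controls. With 977 left out, the SD was still larger in BPA libraries for 9 of 10 members in subcutaneous fat (46.9% of all genes; median 0.86 in BPA libraries and 0.45 in controls) and for 10 of 10 in visceral fat (57.4%; 0.76 in BPA libraries and 0.30 in controls). The count of members with an SD at least 2 times that of the controls was then 3 of 10 in subcutaneous fat (14.3% of all genes) and 6 of 10 in visceral fat (20% of all genes).

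**Figure D3:**
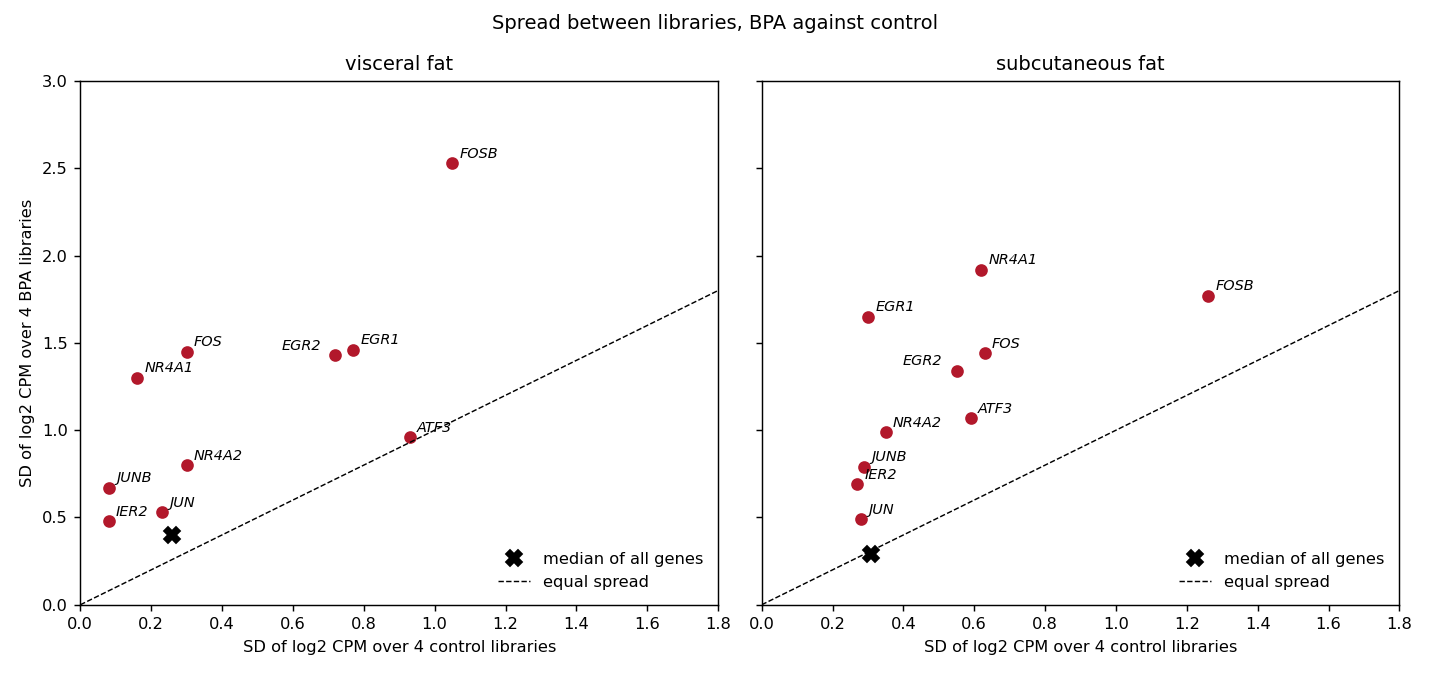
SD of log2 CPM over the 4 BPA libraries (vertical axis) against that over the 4 control libraries (horizontal axis) for each of the 10 genes, in visceral fat (left) and subcutaneous fat (right); the cross marks the medians of all genes and the dashed line equal SDs. All 10 genes lie above that line in both panels, with ATF3 in visceral fat nearest to it (0.96 in BPA and 0.93 in control libraries).

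The members ranked the libraries alike. In subcutaneous fat, BPA library 977 was the highest of its group for 10 of 10 members, whereas it was the highest for 21.4% of all genes. Its lead was narrow for NR4A2 (8.52 CPM, against 8.35 CPM in 922) and for the sparse EGR2 (1.57 CPM, against 1.24 CPM in 918). In visceral fat, 977 was the highest BPA library for 7 members (34% of all genes) and 918 the lowest for 9 (16.7%). FOS, JUNB, EGR1, EGR2, NR4A1, NR4A2 and IER2 had 977 on top in both depots, as did 6.37% of all genes. Subcutaneous control 924 was the highest of its group for 7 members (30.1% of all genes) and 931 the lowest for 7 (25.3%). No visceral control was the highest for more than 3. The members vary together, so these counts are descriptions.

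Other measures of these libraries also stood apart. Subcutaneous BPA library 977 had a total of 4.35 M, inside the range of its group, and the largest sum of skeletal muscle markers, 371 CPM, against 326 CPM in 922, 127 CPM in 941 and 44.9 CPM in 918. Visceral BPA library 977 had the smallest total of its depot (6.77 M), the largest mesothelial sum (283 CPM) and the smallest adipocyte sum (19450 CPM). It also had the largest visceral sums of skeletal muscle markers (94.9 CPM against 8.38–28.5 CPM in the other 7 visceral libraries), of lymphocyte markers (198 CPM against 72.9–115 CPM) and of progenitor and stromal markers (5317 CPM against 1810–3914 CPM). Visceral BPA library 918 had the largest sum of smooth muscle markers, 4797 CPM against 1503–2142 CPM in the other 3 BPA libraries. Heat shock chaperones summed to 1722 CPM in subcutaneous 977, near the 1619 CPM of 918, and to 2941 CPM in visceral 977, the lowest of the visceral BPA group, while 984 had 7152 CPM. Whether any of these plays a part in the member levels was not tested.

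**Figure D4:**
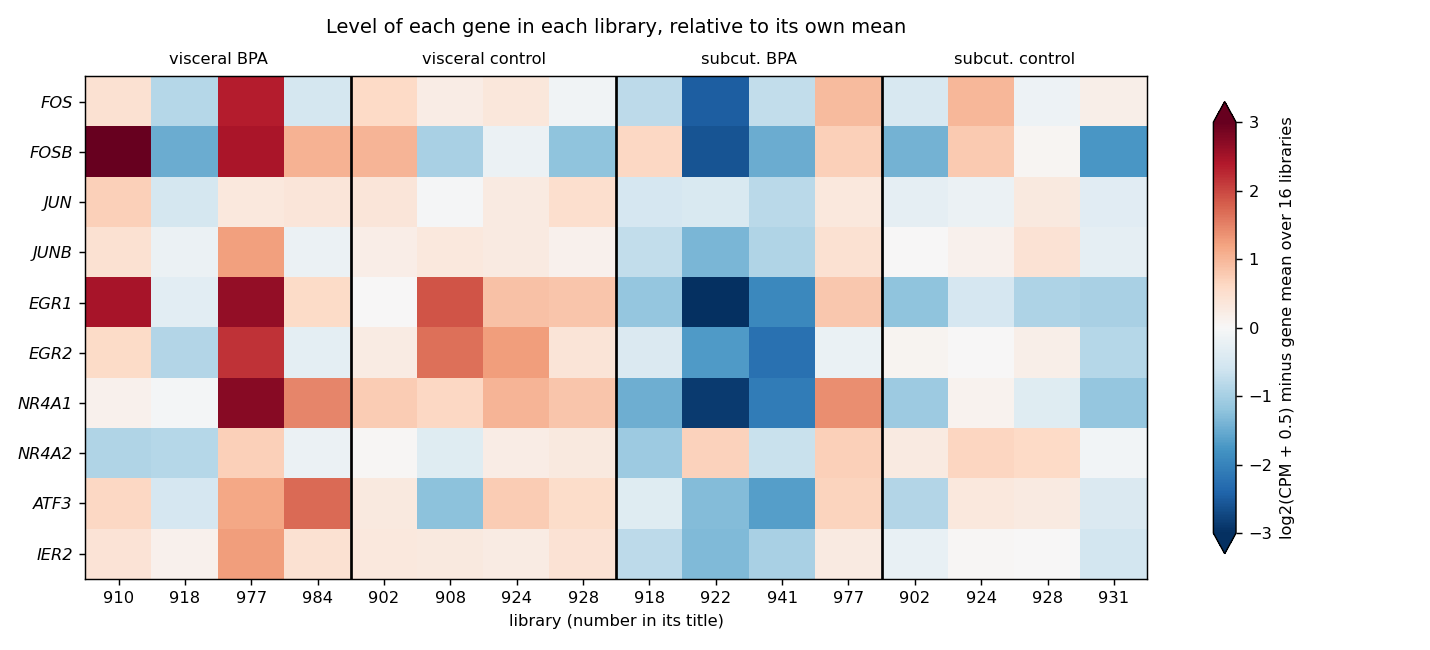
Level of each of the 10 genes in each library relative to the mean of the 16 libraries (difference of log2(CPM + 0.5), colour scale from -3 to 3), with libraries grouped as visceral BPA, visceral control, subcutaneous BPA and subcutaneous control. The column of subcutaneous 977 is higher than the other 3 subcutaneous BPA columns for every gene, though narrowly for NR4A2 and EGR2. FOSB in visceral 910 is at the end of the scale.

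Likeness between genes was measured as the correlation of log2 CPM over 16 libraries after centring each group on its own mean, for the 9 members tested in every comparison. The libraries share depot pairs (11 numbers) and depth differences, so r is a description. Against the mean of the other members, r was 0.916 for IER2, 0.896 for JUNB, 0.853 for NR4A1, 0.842 for FOS, 0.798 for EGR1, 0.744 for JUN, 0.692 for ATF3, 0.668 for FOSB and 0.390 for NR4A2. Among 47 other early genes and relatives compared, ZFP36, whose protein speeds the decay of AU-rich mRNAs, was the most alike (r = 0.933 with the mean of the members). It was followed by CCN1, a secreted matrix protein, at 0.854, the phosphatases DUSP1 at 0.814 and DUSP2 at 0.800, BTG2 at 0.797 and EGR3 at 0.740. Only 6 of the 47 were among the 50 genes most alike, members aside. The other relatives had lower values, with NR4A3 at 0.601, JUND at 0.450, FOSL1 at 0.432 and FOSL2 at 0.373. The lowest of the 47 were GADD45A at -0.189 and IER5L at -0.208. Outside those lists the 8 most alike were MBOAT7 (0.901), LOC114111250 (0.894), ING2 (0.870), STUM (0.867), TBC1D9 (0.862), LOC114113709 (0.842), SPTSSA (0.839) and TMEFF2 (0.830).

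The depots were compared next. In control fat, EGR1 and NR4A1 were higher in visceral than in subcutaneous libraries. EGR1 averaged 72.9 ± 40.6 CPM in visceral controls and 18.7 ± 4.1 CPM in subcutaneous controls (SD, n = 4 each), a 3.92-fold difference (log2 1.97 ± 0.35, adjusted p = 0.00572). NR4A1 averaged 31.9 ± 3.56 CPM in visceral controls and 12.3 ± 5.46 CPM in subcutaneous controls, a 2.6-fold difference (log2 1.38 ± 0.27, adjusted p = 0.00902). No visceral value of either gene reached down to a subcutaneous one. These were 2 of 10 members called, against 13.3% of 14456 genes (7.17% higher in visceral fat). EGR1, EGR2, NR4A1 and IER2 separated the groups without overlap (4 of 10, against 19.9% of all genes), all higher in visceral fat (10.2% of all genes). Of the 10, 5 had an unadjusted p under 0.05 (29.5% of all genes) and 9 were positive (49.4%). Both calls held with each library left out in turn, with log2 values of 1.53 to 2.21 for EGR1 (adjusted p 0.00296 to 0.0176) and 1.22 to 1.67 for NR4A1 (adjusted p 0.00356 to 0.0265). In a fit of all 16 libraries, which includes the wider BPA spread, neither was called (EGR1 1.97, adjusted p = 0.0814, and NR4A1 1.37, adjusted p = 0.246).

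The other members were not called in control fat. EGR2 averaged 4.25 ± 2.19 CPM in visceral controls and 1.73 ± 0.622 CPM in subcutaneous controls (log2 1.27 ± 0.46, adjusted p = 0.0909). IER2 averaged 68.5 ± 4.08 CPM in visceral controls and 49.1 ± 8.91 CPM in subcutaneous controls (log2 0.48 ± 0.15, adjusted p = 0.0542; called by DESeq2 at 0.0234). JUN had a log2 difference of 0.39 ± 0.18 (adjusted p = 0.164), NR4A2 of -0.35 ± 0.28 (adjusted p = 0.428), and FOS, FOSB, JUNB and ATF3 had differences of 0.06 to 0.39. The median of the members was 0.39, against -0.01 over all genes. Among the relatives, EGR3 differed by 2.28 ± 0.61 (adjusted p = 0.032) and NR4A3 by 1.64 ± 0.48 (adjusted p = 0.0446), while FOSL2 (-0.46, adjusted p = 0.0785, or 0.027 without visceral 924) and JUND (-0.09, adjusted p = 0.767) were not called. The EGR3 call was lost without subcutaneous 902, 928 or 931 or visceral 908 or 928 (adjusted p up to 0.0834), and the NR4A3 call without subcutaneous 902, 924 or 931 or visceral 902, 924 or 928 (up to 0.137).

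Depth and the levels of marker genes differed between the same control libraries. Visceral totals were 11.0–13.1 M and subcutaneous totals 4.74–6.22 M. Of all genes, 7.17% were called higher and 6.16% lower in visceral controls. Of the tested markers, 5 of 6 mesothelial, 6 of 9 heat shock, 4 of 16 adipocyte, 2 of 10 endothelial and 1 of 8 smooth muscle and 1 of 9 macrophage genes were called higher in visceral fat, and 4 of 10 progenitor and stromal and 2 of 2 skeletal muscle genes were called lower. The heat shock sum was 2987–3805 CPM in visceral controls and 1023–1791 CPM in subcutaneous controls, and the mesothelial sum was 50.9–105 CPM in visceral controls and 4.07–9.34 CPM in subcutaneous controls. The mesothelial marker LRRN4 was at 0 in all subcutaneous libraries, and only 1 mesothelial marker had enough counts to be tested within subcutaneous fat. The part of depth and of these markers in the EGR1 and NR4A1 differences was not tested.

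In BPA fat 0 of 9 members tested were called between depots, against 9.07% of 13782 genes. EGR1 averaged 124 ± 97.9 CPM in visceral BPA libraries and 22.3 ± 26.4 CPM in subcutaneous BPA libraries (log2 2.46 ± 0.83, adjusted p = 0.0863), and NR4A1 averaged 52.1 ± 48.4 CPM in visceral and 15.1 ± 22.2 CPM in subcutaneous libraries (log2 1.78 ± 0.90, adjusted p = 0.231). IER2 had the lowest adjusted p (1.20 ± 0.35, adjusted p = 0.0583), FOSB the largest estimate (3.02 ± 1.09, adjusted p = 0.104), and ATF3 had 1.35 ± 0.55 (adjusted p = 0.147). These 4 genes, EGR1, IER2, FOSB and ATF3, had an unadjusted p under 0.05 (27% of all genes). FOS (1.23), JUN (0.58) and JUNB (0.92) were also positive and NR4A2 (-0.31) was not, so that 8 of 9 were (52% of all genes). No member separated the groups (18.6% of all genes), and the median was 1.23 against 0.02 over all genes. Of the markers tested in the same libraries, 4 of 9 macrophage, 4 of 9 heat shock, 2 of 3 mesothelial, 1 of 8 smooth muscle and 1 of 10 endothelial genes were called higher in visceral fat, and 2 of 10 progenitor and stromal genes were called lower. The macrophage sum was 551–1208 CPM in visceral BPA libraries and 329–527 CPM in subcutaneous BPA libraries, and the heat shock sum was 2941–7152 CPM in visceral and 1084–1722 CPM in subcutaneous BPA libraries. Their part in the member differences was not tested.

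Calls in this comparison depended on the libraries and the fit. Without subcutaneous BPA library 977, EGR1 (log2 3.72, adjusted p = 0.0319), NR4A1 (3.68, adjusted p = 0.0308) and IER2 (1.65, adjusted p = 0.02) were called higher in visceral fat. With 977 left out of both depots, JUNB (1.07, adjusted p = 0.0311) was called as well, with EGR1 at 3.28, NR4A1 at 2.85 and IER2 at 1.36. With all libraries kept, 3 members were called in the fit of all 16 libraries and 3 with the title number as a block, and IER2 alone was called by DESeq2 and with no filter on low counts. The relatives EGR3 (2.62, adjusted p = 0.119) and NR4A3 (2.35, adjusted p = 0.145) were not called with all 8 libraries. The control and BPA depot comparisons use separate libraries. The difference between them is the same quantity as the difference between both BPA effects given above, in which 0 members were called.

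The 5 numbers found in both depots allowed a library to be set beside its namesake. Only the 3 control numbers were taken as pairs. BPA number 918 also matched its namesake best, but at a lower correlation (0.167), and 977 did not match best (0.031). EGR1 was 1.82 and 3.6 times as high in visceral as in subcutaneous fat for BPA numbers 918 and 977, and 2.36, 2.62 and 3.47 times for control numbers 902, 924 and 928. NR4A1 was 2.8 and 2.51 times as high for 918 and 977, and 3.82, 1.89 and 2.31 times for 902, 924 and 928. IER2 was higher in visceral fat for all 5 numbers as well, by 1.14 to 1.98 times. Such a direction in 5 of 5 numbers was seen for 3 of 10 members and for 13.8% of 14793 genes, and also for EGR3 and NR4A3. Over the 3 control numbers alone, JUN, EGR1, EGR2, NR4A1, ATF3 and IER2 were higher in visceral fat each time (6 of 10, against 26.6% of all genes). JUNB, EGR2 and ATF3 were higher in visceral fat in 4 of 5 numbers, FOS and JUN in 3 and FOSB in 2. NR4A2 was clearly higher there in 1 (918) and nearly level in 977 (8.54 CPM in visceral and 8.52 CPM in subcutaneous fat). Number 977, the highest BPA library in both depots for most members, had EGR1 at 220 CPM in visceral and 61.2 CPM in subcutaneous fat, so its depot ratio of 3.6 was close to the 3.47 of control 928.

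**Figure D5:**
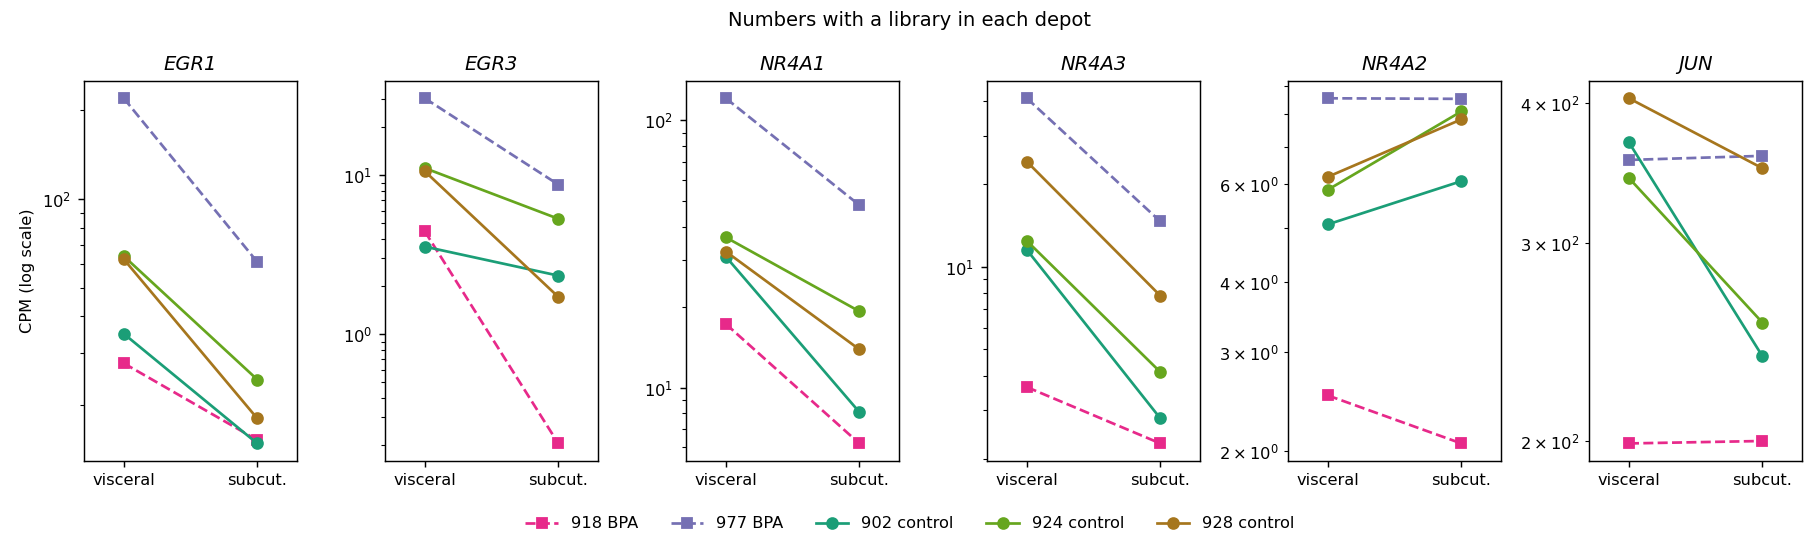
CPM (log axis) in visceral and subcutaneous fat for the 5 numbers with a library in both depots, joined by a line (dashed with squares for BPA numbers 918 and 977, solid with circles for control numbers 902, 924 and 928), for EGR1, EGR3, NR4A1, NR4A3, NR4A2 and JUN. Lines of EGR1, EGR3, NR4A1 and NR4A3 are higher at the visceral end for all 5 numbers and those of JUN for 3. Those of NR4A2 are clearly higher there for 1 (918) and nearly level for 977 (8.54 CPM in visceral and 8.52 CPM in subcutaneous fat). EGR3 in subcutaneous 918 is near the limit of counting (0.206 CPM).

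Other immediate early genes were taken from a list of 45. Of 40 tested in subcutaneous fat, 0 were called between BPA and control (0.709% of all genes), with 8 lower (7.02% of all genes) and 1 higher (7.21%) at an unadjusted p under 0.05 and a median of -0.21. ZFP36L2, a relative of ZFP36, averaged 180 ± 18.5 CPM in BPA libraries and 265 ± 23.1 CPM in controls without overlap (log2 -0.55, adjusted p = 0.0879), and the kinase SGK1 averaged 11.6 ± 6.02 CPM in BPA libraries and 30.8 ± 8.69 CPM in controls (-1.40, adjusted p = 0.0976). Without BPA library 977 SGK1 was called lower (-1.80, adjusted p = 0.0268). The clock gene PER1 pointed the other way, at 0.79 (adjusted p = 0.205). In visceral fat 0 of 42 were called (0% of all genes), with a median of 0.07 and 24 of 42 positive (50.3% of all genes). SOCS3, an inhibitor of cytokine signalling, had 16.1 ± 10.3 CPM in BPA libraries and 7.88 ± 1.66 CPM in controls (1.03, adjusted p = 0.658). PLK2 pointed the other way, with 85.5 ± 16.4 CPM in BPA libraries and 114 ± 13.2 CPM in controls (-0.41, adjusted p = 0.658).

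Between depots in control fat, 5 of 42 other early genes were called higher (7.17% of all genes) and 1 lower (6.16%) in visceral libraries, 6 in all against 13.3% of all genes. GADD45A, a growth arrest gene, averaged 87.2 ± 6.01 CPM in visceral controls and 48.3 ± 7.27 CPM in subcutaneous controls (log2 0.86, adjusted p = 0.00339). PHLDA1 differed by 1.08 (adjusted p = 0.0156) and ID3, an inhibitor of helix-loop-helix factors, by 0.78 (adjusted p = 0.0232), a call that 5 of 8 single omissions ended (without subcutaneous 902, 924 or 931 or visceral 902 or 928). SOCS3 was the lower one, with 7.88 ± 1.66 CPM in visceral controls and 15.8 ± 2.96 CPM in subcutaneous controls (-1.0, adjusted p = 0.0162). In BPA fat 5 of 40 were called higher (5.13% of all genes) and 0 lower (3.94%), among them PHLDA1 (0.85, adjusted p = 0.0285), IER5L (0.82, adjusted p = 0.0311), ID3 (1.39, adjusted p = 0.034) and RHOB (1.02, adjusted p = 0.0462), each of which lost its call without some single library.

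The kinases and factors upstream of these promoters showed no called BPA effect. In either depot 0 of 27 were called (0% of all genes in visceral and 0.709% in subcutaneous fat). SRF, which binds the serum response element of many early genes, averaged 50.1 ± 9.34 CPM in visceral BPA libraries and 34.6 ± 1.04 CPM in visceral controls without overlap (log2 0.53 ± 0.16, adjusted p = 0.658), and the kinase gene RPS6KA5 averaged 242 ± 49.4 CPM in visceral BPA libraries and 162 ± 12 CPM in visceral controls, also without overlap (0.57 ± 0.17, adjusted p = 0.658). MAPK9 was lower in visceral BPA libraries without overlap (-0.33, adjusted p = 0.658). Without overlap were thus 2 higher and 1 lower of 27 in visceral fat, against 4.03% of all genes in either direction. In subcutaneous fat 0 were higher and 2 lower without overlap (7.45% of all genes). These were MAPK14 (-0.31, adjusted p = 0.286) and ELK3 (-0.24, adjusted p = 0.396). Between depots 0 of 27 were called in control fat (13.3% of all genes). Without subcutaneous 928, RPS6KA1 (-1.02, adjusted p = 0.0378) and MAP2K6 (-1.30, adjusted p = 0.0449) were called lower. In BPA fat 2 of 27 were called (9.07% of all genes): MAP2K1 (0.55, adjusted p = 0.0341) and SRF (0.64, adjusted p = 0.0468) were called higher in visceral fat, calls that most single omissions ended.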

How the data were processed

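RNA sequencing measured gene expression in 16 libraries. A low-input kit followed removal of ribosomal RNA, per the labels. Per the submitters' processing notes, STAR 2.6.0c aligned the reads, featureCounts of Subread 1.6.1 counted them per gene, and quality reports came from FastQC 0.11.5 and MultiQC 0.9. The deposited values are counts per gene and library: although the table is named as normalized, it holds 0 values that are not whole and its column totals differ, so raw counts were assumed. Genome build, annotation and strand setting: not given in the sources used here. Symbols matched against the sheep annotation ARS-UI_Ramb_v3.0 gave the gene types, and no positions are printed.

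Genes passing filterByExpr (minimum count 10, minimum total 15) were TMM-scaled and tested two-sided in edgeR 4.0.16 (glmQLFit and glmQLFTest, quasi-likelihood) in R 4.3.3, with Benjamini-Hochberg adjustment over all genes tested and a threshold of 0.05. Each comparison used the 8 libraries of its groups, and the difference of BPA effects used all 16. The pipeline was tested on simulated data. Values are CPM on the TMM-scaled total, and the log2 CPM behind spreads and likeness have a prior count of 2. The comparisons share libraries, so their estimates are not independent.

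The members and gene lists were chosen with earlier results of these data known. The genes named are the 10 members, their relatives, the 4 genes with the smallest p in each of the lists of other early genes and of upstream genes per comparison, of which the text gives a part, and the 8 genes outside the early lists most like the members. CCN1, DUSP1, DUSP2, BTG2 and ZFP36 were named after their values were seen.

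The title number was checked as an identifier by the correlation, across genes, of deviations from the group mean. For control numbers 902, 924 and 928 it was 0.287, 0.400 and 0.332, with the best match always the same number, so they are taken as pairs; the block is an alternative and no main fit has it. For BPA numbers it was 0.167 (918, matching each other best) and 0.031 (977, not matching best). Number 918 thus met the same best-match rule as the controls, at a lower correlation, and 977 did not. The BPA numbers were not taken as pairs. Alternatives were DESeq2 1.42.0, its size factors, upper-quartile scaling, no filter, 50 counts in 4 libraries, all 16 libraries in 1 fit, the title number as a block (limma 3.58.1 voom for BPA effects), the library total as a covariate, and omission of libraries.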

Additional observations from a re-analysis of the deposited data

Results flagged for a closer look

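NR4A1 in subcutaneous BPA library 977, at 48.2 CPM, lay far from the other 3 libraries of its group, which had 2.03 to 6.18 CPM. Its gap to the nearest of them was 0.91 of the whole range of the group, past Dixon's 95% critical value of 0.829 for 4 libraries. It was the only 1 so found among 40 groups of 4 values (10 members in 4 groups). Chance gives such a value in about 1 of 20 groups of normally distributed values, a larger share than was found. The rule was applied to CPM, which can be skewed, and log2 CPM was not examined by it. The members vary together, so these groups are not independent.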

How the results depend on the processing

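No member was called for BPA against control under any alternative (lowest adjusted p 0.0688), and 0 of 87 estimates that changed sign, of 1969 alternative values of single genes, had an adjusted p under 0.05. The causes were not tested. EGR2 was below the filter in the subcutaneous BPA comparison and in the BPA depot comparison. Its level and the depth were both low in subcutaneous BPA libraries. In the difference of effects, fitted on all 16 libraries, EGR2 passed the filter and was tested.

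Subcutaneous BPA calls (96) became 469 with DESeq2, 173 with no filter, 54 with 50 counts in 4 libraries, 46 with all 16 libraries, 1 with limma voom on all 16 libraries and the title number as a random block (tool, libraries and block change together), 13 with the library total as a covariate, 0 without controls 902 and 924 together, and 32–128 with each library left out. Visceral BPA calls (0) became 9 with DESeq2 and 1 with the covariate. Control depot calls (1928) became 1138 without subcutaneous 902 and 924 and 1043–1755 over single omissions (1239 without subcutaneous 924, and 1245, 1216 and 1043 without visceral 902, 908 and 928), and 0 members were called in the fit of all 16 libraries. BPA depot calls (1250) became 2180 with DESeq2, 2408 with all 16 libraries and 369–2206 over single omissions. Members called there (0) became 1 with DESeq2, 1 with no filter, 3 with all 16 libraries, 4 without 977 in both depots and 0–3 over single omissions. DESeq2 called 12 genes for the difference of effects.

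With the title number as a block, control depot calls were 2631 and no call of EGR1 (1.48), NR4A1 (1.33), EGR3 or NR4A3 was lost, while FOSB (-0.057) and JUND (0.116) changed sign. In BPA fat, whose numbers were not taken as pairs, the block gave 892 calls and 3 members (EGR1, NR4A1 and IER2). There JUN (-0.006), NR4A2 (0.122), JUND (-0.229) and FOSL2 (-0.172) changed sign. The limma voom fit with the random block turned EGR1 (-0.432) and NR4A1 (-0.687) in subcutaneous and FOS (-0.076) and JUN (-0.077) in visceral fat.

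That fit gave member medians of -0.525 (subcutaneous) and 0.119 (visceral). The covariate turned the subcutaneous member median from -0.273 to 0.200 and left the visceral one, 0.485, at 0.068. It turned JUN (0.200), NR4A2 (0.124), ATF3 (0.327), FOSL2 (0.416) and JUND (0.163) in subcutaneous and FOS (-0.530), JUNB (-0.230) and EGR3 (-0.245) in visceral fat. Visceral JUN turned with upper-quartile scaling (-0.028) and no filter (-0.015), and subcutaneous EGR3 without controls 902 and 924 (0.293). Alternatives chosen after seeing the data were the pair of controls in the depot comparison, 977 in both depots, and visceral 910 with 977. The last moved the visceral median to -0.364 and turned FOS (-1.006), JUN (-0.307), JUNB (-0.421), EGR1 (-0.875), IER2 (-0.030) and EGR3 (-0.553). In the difference of effects it gave a median of -0.155, FOS -0.476, JUN -0.098, EGR1 -1.137, EGR2 -0.766, NR4A1 -0.213, NR4A2 -0.306 and EGR3 -0.294, and without 977 in both depots NR4A2 was -0.152.

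Over single omissions the member median was -0.954 to -0.07 (subcutaneous), -0.072 to 0.709 (visceral) and 0.125 to 1.575 (difference of effects). Signs changed within these ranges. Subcutaneous BPA: FOSB -0.312 to 0.772, EGR1 -0.987 to 0.621, NR4A1 -1.593 to 0.672, NR4A2 -0.569 to 0.002, FOSL2 -0.419 to 0.061, NR4A3 -0.677 to 0.881, JUND -0.201 to 0.077, EGR3 -3.463 to 0.206. Visceral BPA: FOS -0.503 to 0.971, JUN -0.18 to 0.201, JUNB -0.176 to 0.387, EGR2 -1.29 to 0.178, NR4A1 -0.13 to 1.0, EGR3 -0.514 to 0.829. Control depots: FOS -0.123 to 0.425, FOSB -0.549 to 0.809, JUND -0.189 to 0.036. BPA depots: FOSL2 -0.126 to 0.351. Difference of effects: EGR2 -0.153 to 1.525, NR4A1 -0.429 to 2.3, NR4A2 -0.449 to 0.338, NR4A3 -0.149 to 1.816, EGR3 -0.244 to 3.603.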
